A study of Homo sapiens with 4 samples.

Results

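The 5 genes described here serve heme synthesis and the late maturation of red cells: *ALAS2* and *UROS*, which encode heme enzymes, *AHSP*, which encodes the chaperone of free α-globin, *HEMGN*, which encodes an erythroid nuclear protein, and *KLF1*, which encodes an erythroid transcription factor. They were chosen by symbol from the 143 genes of the authors' deposited comparison of TRIAC with DMSO in K562 cells, knowing that they were higher with TRIAC. Their direction is therefore a description and was not tested. K562 is an established human erythroleukemia cell line, and the study asked how TRIAC, a metabolite of thyroid hormone, acts on globin genes. All cells received 10 µM hemin, the oxidized form of heme, which drives erythroid differentiation of this line. The TRIAC group has 2 libraries of cells incubated with 20 µM TRIAC for 48 h, and the DMSO group has 2 libraries of cells incubated for 48 h with the solvent. No RNA-seq group without hemin was analysed here, and all cells come from this 1 line.

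Heme is built from glycine and succinyl-CoA in a chain of enzymes that starts and ends in mitochondria. ALAS2 is the erythroid form of the enzyme of the first, rate-limiting step, and UROS closes the porphyrin ring in the middle of the pathway. Heme then joins globin chains into hemoglobin, and AHSP holds free α-globin chains until they pair with β-like chains. KLF1 binds CACCC boxes and activates β-globin and many red cell genes, GATA1 binds GATA sites in most erythroid promoters, and HEMGN is a nuclear protein of hematopoietic cells that is known as a target of GATA1.

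Promoter sequence was looked at as a trait apart from the expression values. RefSeq promoters of GRCh38.p14 were matched for 3 of the 5 genes, *ALAS2*, *KLF1* and *HEMGN*, the last with 2 annotated starts. *UROS* and *AHSP* had no entry. The 250 bases before each start are printed in the direction of the gene, 5′ to 3′, because erythroid factors bind GATA sites and CACCC boxes. The CACCC word searched for is a looser pattern, and a match need not hold the letters CACCC. Capitals mark matches, on either strand, to a GATA word (the letters GATA with A or T before them and A or G after them), to a CACCC word (CCNCNCCC, where N is any base) or to a CCAAT box (CCAAT).
*ALAS2*, chrX:55030978-55031227, minus strand: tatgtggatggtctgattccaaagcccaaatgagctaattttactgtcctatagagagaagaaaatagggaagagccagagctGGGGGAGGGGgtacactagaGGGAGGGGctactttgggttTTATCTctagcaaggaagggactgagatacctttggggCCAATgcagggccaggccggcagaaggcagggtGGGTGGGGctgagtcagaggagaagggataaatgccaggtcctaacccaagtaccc
*KLF1*, chr19:12887202-12887451, minus strand: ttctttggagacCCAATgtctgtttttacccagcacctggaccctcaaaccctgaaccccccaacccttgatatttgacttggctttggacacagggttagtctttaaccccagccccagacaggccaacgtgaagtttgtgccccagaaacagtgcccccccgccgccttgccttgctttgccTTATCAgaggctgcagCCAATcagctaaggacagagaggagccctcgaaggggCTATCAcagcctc
*HEMGN*, outer start, chr9:97944853-97945102, minus strand: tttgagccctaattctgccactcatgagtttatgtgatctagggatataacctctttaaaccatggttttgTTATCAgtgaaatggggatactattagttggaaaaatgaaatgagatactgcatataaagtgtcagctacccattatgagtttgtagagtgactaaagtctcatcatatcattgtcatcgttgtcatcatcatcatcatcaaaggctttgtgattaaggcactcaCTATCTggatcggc
*HEMGN*, inner start, chr9:97938173-97938422, minus strand: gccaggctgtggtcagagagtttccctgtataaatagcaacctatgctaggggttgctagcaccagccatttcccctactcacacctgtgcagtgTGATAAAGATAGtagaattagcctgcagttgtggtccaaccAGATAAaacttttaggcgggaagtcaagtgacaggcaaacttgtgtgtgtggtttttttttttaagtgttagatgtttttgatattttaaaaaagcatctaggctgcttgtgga

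All 4 windows, 2 of them from *HEMGN*, hold a GATA word, against 22.3% of the 35116 windows of the same length in the RefSeq table. *ALAS2* has 1, whose first base lies 127 bases before the start. *KLF1* has 2, at 66 and 13 bases, and a CCAAT box lies between them at 50 bases. The outer start of *HEMGN* has 2, at 179 and 14 bases. Its inner start has 3, at 155, 149 and 114 bases, of which the first pair lie directly side by side. The inner start is that of the canonical GENCODE 44 transcript of *HEMGN*. The CACCC word, CCNCNCCC, is in the *ALAS2* window alone, with 4 matches, 2 of which overlap each other. Only the match at 56 bases holds the letters CACCC, on the opposite strand. The word is in 53.4% of all windows. It is in 40 of 53 (75.5%) windows of the other genes that were higher with TRIAC and 63.5% of those of the lower genes. CCAAT was found in the *ALAS2* window and in that of *KLF1*, 2 of the 4, and in 32.0% of all windows. The core motif of nuclear receptors, AGGTCA, was in none of the 4 windows and in 12.1% of all windows. At that share, 4 windows are too few to read anything from its absence. It was in 3 of 53 (5.7%) windows of the other genes that were higher with TRIAC and in 12.5% of those of the lower genes. Among the windows of the other genes that were higher with TRIAC, 10 of 53 (18.9%) held a GATA word, and among those of the lower genes 14.4% did. The share of G and C bases was 52.8% in the *ALAS2* window and 55.2% in that of *KLF1*. It was 37.2% at the outer and 42.4% at the inner start of *HEMGN*. The windows compared with these were not matched for it. A match is a run of letters and not a binding site, and the 3 genes were not drawn at random.

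**Figure D1:**
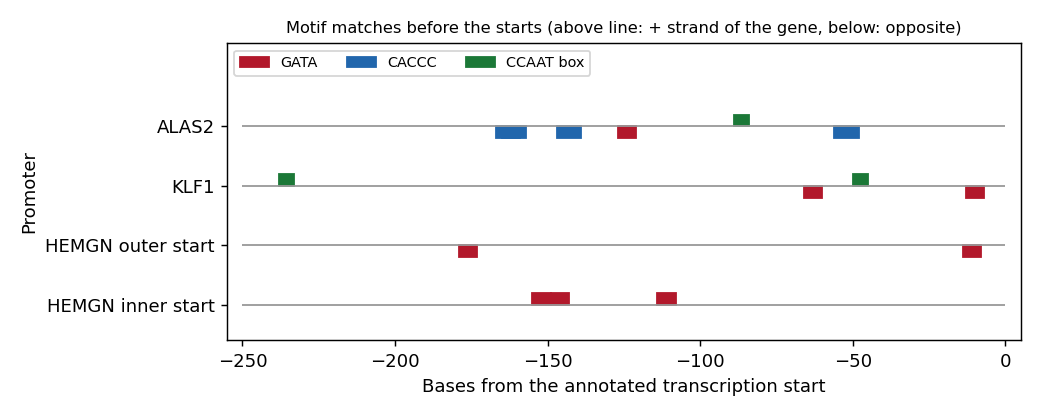
Position of motif matches in the 250 bases before 4 annotated starts (horizontal axis, bases from the start; vertical axis, promoter). Boxes are matches to GATA words (red), CACCC words (blue) or CCAAT (green), above the line on the strand of the gene and below it on the other; every line has a red box, and blue boxes lie on the *ALAS2* line alone.

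All 5 genes had a higher expression value in the TRIAC group than in the DMSO group, by 4.25 to 28.7 times. The expression value is 1 number per gene and group in the authors' deposited table, of a unit that is not given. It was taken as not scaled to length, which is not stated by the authors. If it is already scaled, all levels, shares and ranks per kilobase given here were divided by length once more than needed. The ratio of a gene between the groups does not depend on this. There is no value per library, so no SD, interval or test is given for any value here, and the depth is unknown. The 5 genes all passed a ratio of 2, as did 42.7% of the genes of the table in this direction. They also all passed a ratio of 4, as did 39.2% of the genes, though *UROS* did not with 10 added to both values and *UROS* and *KLF1* did not after division by the summed value of the table. The other 57.3% had a TRIAC value of at most 1/2 of the DMSO value, since the table holds genes that the authors selected for a difference. More RNA per cell and more cells that carry the RNA cannot be told apart in such bulk libraries.

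Of the heme enzymes, *ALAS2* (NCBI Gene 212, chromosome X from 55009055 to 55030977 of GRCh38) had an expression value of 19.79 in the DMSO group and 359.98 in the TRIAC group. Its TRIAC value was 18.2 times its DMSO value, a log2 ratio of 4.19. *UROS* (NCBI Gene 7390, chromosome 10 from 125784980 to 125823258) went from 107.2 to 455.57 in expression value. This is 4.25 times, a log2 ratio of 2.09, the smallest of the 5. The gain of *ALAS2* was 172 per kilobase of listed length and that of *UROS* 254 per kilobase. Per kilobase of listed length, the *ALAS2* level was 10.0 in the DMSO group, 12.8% of the *UROS* level of 78.2. In the TRIAC group it was 182 per kilobase, 54.8% of the *UROS* level of 332. *UROS* therefore stayed the higher of the pair in both groups, while the *ALAS2* level came to a larger share of the *UROS* level with TRIAC.

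*AHSP* (NCBI Gene 51327, chromosome 16 from 31527900 to 31528803) had an expression value of 2.49 with DMSO and 71.48 with TRIAC, and per kilobase its level was the lowest of the 5 genes in both groups. Its ratio of 28.7 times, a log2 ratio of 4.84, was the highest of the 5, but it rests on a DMSO value near the bottom of the table. In the DMSO group *C17orf99*, a gene of 1090 bases against 567 for *AHSP*, is listed at the same value of 2.49, and the adult globin *HBB* at 2.51. After 10 was added to both values, the log2 ratio of *AHSP* was 2.71, while that of *ALAS2* was 3.63 and that of *HEMGN* 3.99, so the order of these 3 turns on the low value. *AHSP* was also compared with its client, α-globin, per kilobase. The summed level of *HBA1* and *HBA2* was 9073 per kilobase in the DMSO group and 37035 per kilobase in the TRIAC group. The *AHSP* level, 4.39 and 126 per kilobase, was 0.0484% and 0.340% of that sum. The RNA of the chaperone thus stayed far below that of its client in both groups, and their quotient was 7.03 times higher with TRIAC. The size of this rise also rests on the low *AHSP* value of 2.49 in the DMSO group. *HBA1* and *HBA2* were summed because they share most of their sequence.

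*HEMGN* (NCBI Gene 55363, chromosome 9 from 97926791 to 97944852) had an expression value of 63.13 in the DMSO group and 1150.14 in the TRIAC group. This is 18.2 times, a log2 ratio of 4.19, equal to that of *ALAS2* to 2 decimals. The *HEMGN* level per kilobase was 2.79 times that of *ALAS2* in the DMSO group and 2.80 times in the TRIAC group, so these genes kept their relation to each other. *KLF1* (NCBI Gene 10661, chromosome 19 from 12884422 to 12887201) had an expression value of 361.72 with DMSO and 2087.89 with TRIAC, and per kilobase its level was the highest of the 5 in both groups. Its ratio was 5.77 times, a log2 ratio of 2.53. *KLF1* also gained the most per kilobase, 1069, followed by *HEMGN* with 481, while *AHSP* gained 122. Per kilobase the *KLF1* level was 224 in the DMSO group and 1293 in the TRIAC group. The *HEMGN* level was 12.5% of the *KLF1* level in the DMSO group and 39.3% in the TRIAC group, and the *UROS* level was 34.9% and 25.7% of it.

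The order of the levels per kilobase was *KLF1*, *UROS*, *HEMGN*, *ALAS2*, *AHSP* in the DMSO group. With TRIAC it was *KLF1*, *HEMGN*, *UROS*, *ALAS2*, *AHSP*. The exchange of *UROS* and *HEMGN* is the single change of place, and the order was the same without division by length. Whether neighbours in these orders differ beyond the spread between libraries could not be tested, since the spread was not given. The summed level of the 5 genes was 344 per kilobase in the DMSO group and 2442 per kilobase in the TRIAC group. *KLF1* made up 65.0% of this sum with DMSO and 52.9% with TRIAC, and *UROS* 22.7% and 13.6%. The genes with the larger ratios took up the difference. *HEMGN* went from 8.11% to 20.8% of the sum, *ALAS2* from 2.90% to 7.45% and *AHSP* from 1.27% to 5.16%.

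In the DMSO group the 5 genes lay in different parts of the table by expression value per kilobase, with *KLF1* at rank 44 of 143, *UROS* at 71, *HEMGN* at 95, *ALAS2* at 117 and *AHSP* at 131. In the TRIAC group *KLF1* was at rank 11, *HEMGN* at 19, *UROS* at 27, *ALAS2* at 45 and *AHSP* at 52. The median level of all 143 genes was 72.0 per kilobase in the DMSO group and 64.4 per kilobase in the TRIAC group. So *KLF1* and *UROS* lay above the median in both groups, and the other 3 genes passed from below it to above it. By ratio, among the 140 genes whose values both exceeded 0, *AHSP* was at rank 3, *HEMGN* at 11, *ALAS2* at 12, *KLF1* at 38 and *UROS* at 53. The 60 higher genes among them ranged from 3.35 to 40.1 times with a median of 7.42 times, so 3 of the 5 genes lay above that median and 2 below it. In this table of genes selected for a difference, higher genes of low level had larger ratios. Whether the selection shaped this relation was not tested. Higher genes with a mean of both values up to the median of 191 had a median ratio of 11.2 times. Those above it had 5.03 times, 30 genes each. *AHSP* and *ALAS2* belong to the first set. *HEMGN* belongs to the second with its ratio of 18.2 times, as do *KLF1* and *UROS*.

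**Figure D2:**
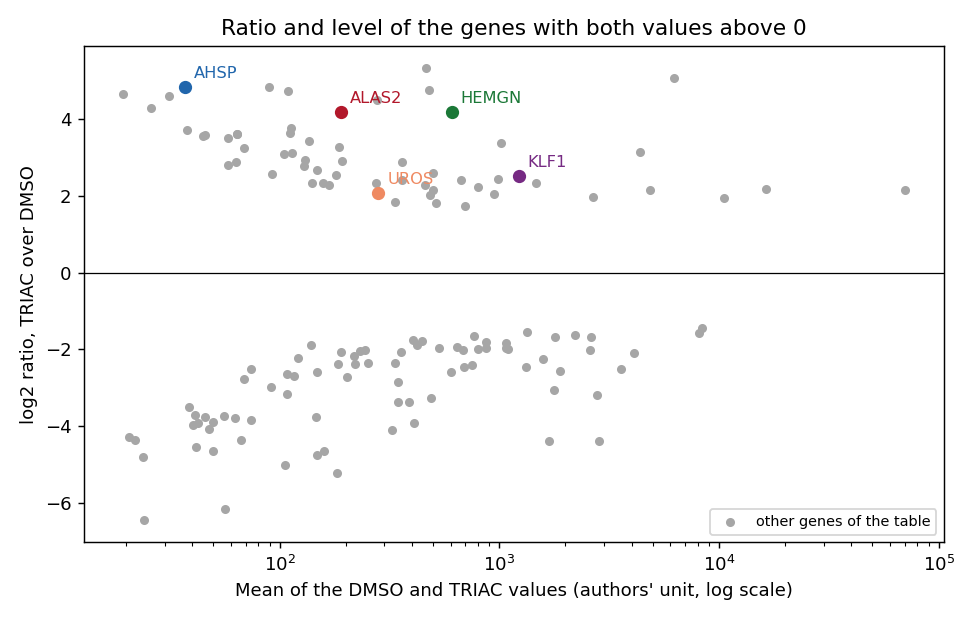
Log2 ratio of TRIAC over DMSO (vertical axis) against the mean of both expression values (horizontal axis, the authors' unit, log scale) for the 140 genes whose values both exceeded 0. Gray points are the other genes of the table; *HEMGN* and *ALAS2* lie at the same height of 4.19, *HEMGN* farther to the right, and *AHSP* lies toward the left.

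The genes most like each of the 5 were taken as the 2 other genes of the table with the nearest log2 ratio, a likeness that rests on 2 groups. For both *ALAS2* and *HEMGN* these were *HBB* (from 2.51 to 49.32, log2 ratio 4.30) and *ESPN* (from 23.26 to 532.77, log2 ratio 4.52), the latter encoding an actin-bundling protein. For *AHSP* they were *APLNR*, the apelin receptor (from 6.04 to 172.74, log2 ratio 4.84), and *TUBB1*, the β-tubulin of platelets (from 34.23 to 926.55, log2 ratio 4.76). *KLF1* was nearest to the antisense transcript *ISPD-AS1* (from 52.36 to 308.72, log2 ratio 2.56) and to the water channel gene *AQP1* (from 26.48 to 157.55, log2 ratio 2.57). *UROS* was nearest to *LBH*, a transcriptional regulator (from 366.77 to 1530.58, log2 ratio 2.06), and to *DMTN*, an actin-binding protein of the red cell membrane (from 190.43 to 781.04, log2 ratio 2.04). Of these 8 genes, *HBB*, *AQP1* and *DMTN* are also in the erythroid lists given next.

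Of 9 enzymes of heme synthesis, *ALAS2* and *UROS* have a row and both were at least 4 times higher, as were 39.2% of the 143 genes. The others are not listed in the table and were therefore not analysed here. A gene without a row cannot be called unchanged. No row was found for 15 genes of mitochondrial transport and cofactors of heme synthesis or for 10 genes of heme breakdown and export. Of 16 genes of iron uptake and storage, 1 has a row, *TF*, which encodes the plasma iron carrier transferrin. It was lower, at 194.61 in the DMSO group and 21.57 in the TRIAC group, a log2 ratio of -3.17. Among the genes of these heme and iron lists that have a row, *TF* alone was lower. The enzymes were higher, but they had been chosen as such.

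Among 38 genes for membrane proteins and other products of red cells, 8 have a row, all at least 4 times higher with a median ratio of 12.0 times, and 2 of these are *AHSP* and *HEMGN*, which were chosen as higher. Without them the median was 8.73 times, against 7.42 times over all 60 higher genes. The other 6 are *SLC4A1*, the anion exchanger band 3 (from 15.19 to 209.82), *RHD*, the RhD antigen (from 16.5 to 207.12), *EPB42*, a protein under the red cell membrane (from 9.31 to 107.09), *AQP1*, *PKLR*, the pyruvate kinase of liver and red cells (from 488.5 to 2449.63), and *DMTN*. *RHD* shares sequence with *RHCE*, so its value is uncertain. The ratios of these 6 genes ran from 4.10 times for *DMTN* to 13.8 times for *SLC4A1*, all below those of *ALAS2*, *HEMGN* and *AHSP*. Within this range lay *KLF1* with 5.77 times and *UROS* with 4.25 times. The place of *AHSP* above these 6 genes rests on its low DMSO value of 2.49. Its log2 ratio was 2.71 with 10 added to both values. Of 31 erythroid transcription factors and globin regulators, *KLF1* alone has a row. Of 24 genes known as targets of KLF1, 6 have a row and all were at least 4 times higher, namely *AHSP*, *HBB*, *SLC4A1*, *EPB42*, *AQP1* and *DMTN*. The target genes share 5 of these 6 with the list of red cell products, so these lists are not separate counts. *AHSP* was chosen as higher, and both lists were written with earlier results of these data known. A ratio of 4 was passed by 39.2% of all 143 genes and by 56 of the 61 higher genes. Passing it therefore adds little to the direction of a gene. The 6 globins with a row, of 10, had a median ratio of 4.51 times. *HBG1* has no row and its sequence was not compared with that of *HBG2*, so the *HBG2* value may hold reads of *HBG1*. *UROS* with 4.25 times lay among *HBA1*, *HBA2*, *HBE1* and *HBG2*, which had 3.90 to 4.54 times. The other globins lay far above it, the embryonic *HBZ* with 34.2 times (from 354.61 to 12112.16) and *HBB* with 19.6 times (from 2.51 to 49.32). The ratio of *AHSP* fell between these. The ratios of *HBB* and *AHSP* rest on DMSO values of 2.51 and 2.49, near the bottom of the table, so their places in this order may turn on these low values.

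**Figure D3:**
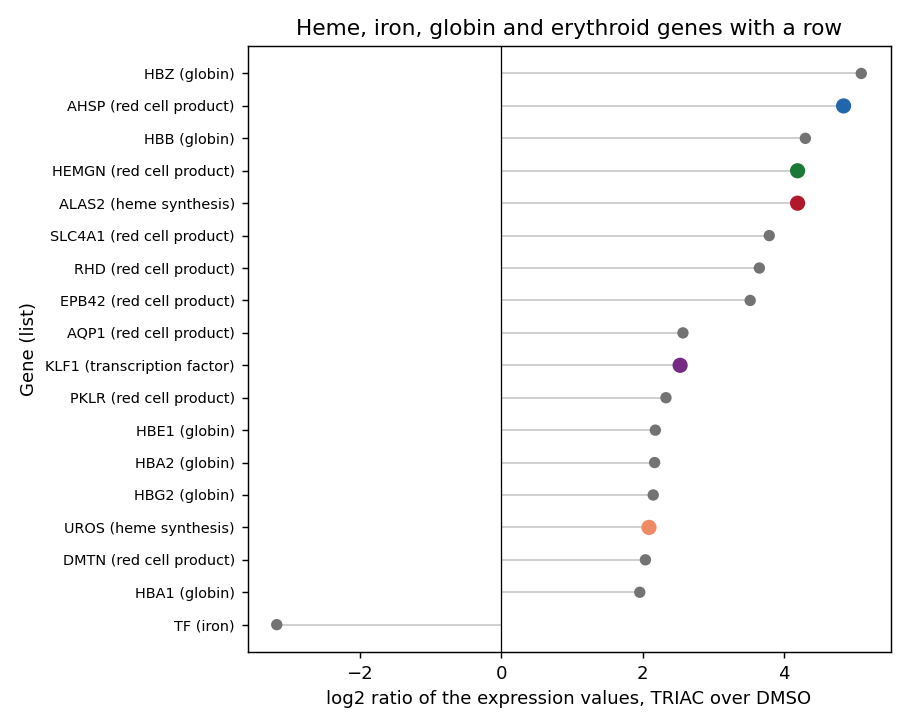
Log2 ratio of TRIAC over DMSO (horizontal axis) for each gene with a row in the lists of heme synthesis, iron, globins, red cell products and transcription factors (vertical axis). Colored points are the 5 genes and gray points the others; *TF* alone lies below 0, and *UROS* lies among the globins *HBG2*, *HBA2*, *HBE1* and *HBA1*.

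In the authors' annotation columns *ALAS2* and *UROS* are the only 2 of the 143 genes that carry the pathway of porphyrin metabolism, and *ALAS2* and *KLF1* are the only 2 that carry erythrocyte differentiation. *AHSP* carries the term hemoglobin complex together with the 6 globins, and all 7 were at least 2 times higher, as were 42.7% of the 143 genes. The term heme binding is carried by 7 genes, none of them among the 5 described here. Of these 7, the 6 globins were higher and *STC2* was lower (from 632.24 to 60.91). Of 8 markers of erythroid cells and K562 cells, *HBG2*, *HBE1* and *HBZ* have a row and were higher. In short marker sets of other lineages, 0 of 4 megakaryocyte, 1 of 4 myeloid and 1 of 3 lymphoid markers have a row. Longer lists were also searched, which do not hold every gene of these lineages, and genes outside them were not counted. Of 18 megakaryocyte genes 1 has a row, *TUBB1*, which was higher (from 34.23 to 926.55). Of 17 myeloid genes *SPI1* has a row and was lower (from 359.27 to 79.09), and of 10 lymphoid genes *CD3D* has a row and was lower (from 119.94 to 17.6). The part of these genes in the values of the 5 genes was not tested.

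Shared sequence, which could let reads of one gene count for another, was searched for. No window of 50 bases in the canonical GENCODE 44 transcript of any of the 5 genes, among 439 windows for *AHSP* and 2035 for *HEMGN*, occurs in a transcript of another gene. *ALAS2* shares 3 bases of exon with *APEX2* on the opposite strand, and no exon base is shared with another gene by the other 4. The listed length, by which levels were divided, was longer than the canonical transcript by 2 bases for *KLF1*, 35 for *UROS*, 38 for *ALAS2*, 79 for *AHSP* and 177 for *HEMGN*. The listed length of *HEMGN*, 2261 bases, was nearest to another of its transcripts, of 2192 bases, which was not searched for shared sequence.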

How the data were processed

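RNA was sequenced from 4 libraries of K562 cells. The authors deposited 1 table of 143 genes with 1 expression signal value per group, a listed length and 3 columns of their own comparison (log2 fold change, p-value, adjusted p-value), which were not used here. Tools in the submitters' processing notes are edgeR, RSEM, Bowtie2, FastQC, Trimmomatic and CASAVA 1.8, with the build GRCh38, while their design text has BWA, TopHat and Cufflinks. The tool behind the deposited values is not given in these sources. Depth is unknown. Ratios were computed without a pseudocount, and levels were divided by the listed length in kilobases. The 5 genes and the 11 gene lists (198 entries) were chosen with earlier results of these data known. Named genes are the 5 genes, the members of the heme, iron, erythroid and KLF1 target lists with a row, and the 2 genes nearest to each by log2 ratio; globins and lineage markers were named in addition. Alternatives were pseudocounts of 1 and 10, a ratio of 4, a filter on low values, no division by length and scaling by the summed table, and scaling without globins was added later. Gene identifiers of all 143 genes were matched to RefSeq (GRCh38.p14). Python 3.11.15, pandas 2.3.3, numpy 2.4.6 and matplotlib 3.10.9 were used, and the scripts were tested on simulated data. No sample column was left unmatched.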

Additional observations from a re-analysis of the deposited data

How the results depend on the processing

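All 5 genes stayed higher under the alternatives run, and all 5 passed a ratio of 2 under each. A ratio of 4 was passed by all 5 without a pseudocount or scaling, but not by *UROS* with a pseudocount of 10 and not by *UROS* and *KLF1* after division by the summed value of the table. With a pseudocount of 1 the log2 ratios were 4.12 for *ALAS2*, 2.08 for *UROS*, 4.38 for *AHSP* and 4.17 for *HEMGN*, and with 10 they were 3.63, 1.99, 2.71 and 3.99, with 2.50 for *KLF1*. Divided by the summed value of the table, which was 1.58 times higher with TRIAC, they were 3.53 for *ALAS2*, 1.43 for *UROS*, 4.19 for *AHSP*, 3.53 for *HEMGN* and 1.87 for *KLF1*. Without the globins, a setting chosen after seeing the data, they were 5.00, 2.90, 5.66, 5.00 and 3.34 in the same order. These sums hold selected genes only, so they are no measure of depth. By ratio, *HEMGN*, *ALAS2*, *KLF1* and *UROS* were at ranks 6, 7, 24 and 39 among the 105 genes left by a filter on low mean values, which leaves out *AHSP*. With a pseudocount of 10 they were at ranks 5, 6, 27 and 55 of 143, and *AHSP* at 19. No paired analysis was possible because the table gives 1 value per group, and for the same reason no replicate could be left out.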
